A study of Rattus norvegicus with 28 samples.

Results

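Agtpbp1 encodes ATP/GTP binding protein 1, also called CCP1, a carboxypeptidase that removes glutamate from the tails of tubulin. The report covers its locus in rat dorsal root ganglion (DRG) in 2 kinds of data: the accessible regions that start between 5100000 and 6200000 on chromosome 17 of the rat genome rn6, and the transcripts of the gene (ENSRNOG00000018651). The stretch holds 35 of the 56810 accessible regions of the series, and Agtpbp1 is 1 of 32754 genes in the count table. The stretch was set by position around a single region centred at 5.6344 Mb, called here the region near Agtpbp1. The name follows the study's assignment of regions to the nearest gene. That region was chosen by its measured values, an unadjusted p below 0.001 against naïve in both pain models with the same direction, so its own change is described here without a test.

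All rats were male Sprague-Dawley rats aged 12 weeks. The libraries came from the ipsilateral lumbar (L4–L6) ganglia of 1 rat each. In the CCI group, silk ligatures were tied loosely around the sciatic nerve (chronic constriction injury), and the 6 accessibility libraries were made 14 days later. In the CFA group, complete Freund's adjuvant was injected under the skin of the hind paw, which inflames it, and the 6 accessibility libraries and 2 RNA libraries were made 48 h later. The reference was 3 accessibility libraries of naïve rats, which had neither procedure, and sham-operated or vehicle-injected rats were not analysed here. A whole ganglion holds neurons, glia and other cells, so fewer open nuclei of 1 cell type and less openness per nucleus cannot be told apart.

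Microtubules carry cargo along sensory axons, which are among the longest cell processes in the body. Tubulin ligases of the TTLL family add chains of glutamate to tubulin tails, and the cytosolic carboxypeptidases, of which Agtpbp1 is the founding member, shorten these chains. The length of the chains sets how motors, severing enzymes and microtubule-associated proteins bind. Loss of Agtpbp1 in the mouse causes the Purkinje cell degeneration phenotype, and loss in humans a neurodegeneration of infancy that affects peripheral nerve as well. An accessible region is a stretch of DNA that Tn5 transposase can enter, as at promoters and enhancers.

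The region near Agtpbp1 was of ordinary size and stood apart from its neighbours. It is 522 bp wide, compared with a median of 492 bp in the stretch and 549 bp over all regions. The nearest accessible region before it ended 135.2 kb away, the longest of the 34 gaps in the stretch, and 92.3% of all gaps between neighbouring regions of the series were shorter. The next region after it began 27.1 kb away. Among the 35 regions, 13 lay before it and 21 after it. The distance to Agtpbp1 that the study lists for it is longer than the 27.1 kb gap and shorter than the 135.2 kb gap. The name alone does not show whether it lies beside the gene, inside it or apart from it. Whether it lies in an exon, an intron or between genes was not analysed here. On the newer rat assembly GRCr8, RefSeq places Naa35, a subunit gene of an N-terminal acetyltransferase, just before Agtpbp1. The next named protein-coding gene after Agtpbp1 is Ntrk2, which encodes TrkB, the receptor of brain-derived neurotrophic factor. Coordinates of that assembly were not transferred to rn6, so no region is assigned to these genes here.

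Accessibility of the region near Agtpbp1 was lower in every library of both pain models than in every naïve library. Values are log2 normalized coverage, and the CCI and CFA tables were normalized separately, each with the same 3 naïve libraries, whose values are given in replicate order. In the CCI table the naïve replicates had 4.95, 5.08 and 5.19, and the 6 CCI libraries had a lowest value of 4.09, a median of 4.27 and a highest value of 4.58. In the CFA table the naïve replicates had 5.18, 5.30 and 5.42, and the 6 CFA libraries ranged from 3.95 to 4.93 with a median of 4.45. The groups did not overlap in either table, which the choice of this region by its p nearly requires, and nothing is read from it. The highest library of the CFA group (CFA a, one of the 2 CFA libraries given a letter in place of a replicate number, because their column names are also those of RNA-seq samples) came closest to the naïve libraries.

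**Figure D1:**
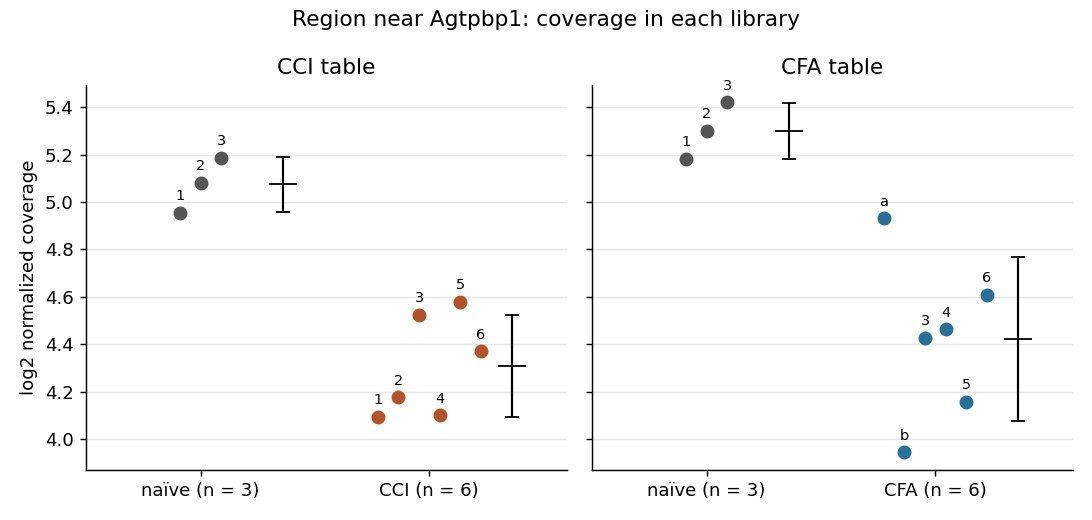
Log2 normalized coverage of the region near Agtpbp1 in each library (points, labelled by replicate), for the CCI table (left) and the CFA table (right). Bars give the mean and SD. The CCI libraries lie between 4.09 and 4.58 and the CFA libraries between 3.95 and 4.93, below the naïve libraries of their table.

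The mean was 4.31 ± 0.22 (SD, n = 6) after CCI against 5.07 ± 0.12 (n = 3) in naïve. The difference was -0.77 with a standard error of 0.17 from limma. After CFA the mean was 4.42 ± 0.34 (n = 6) against 5.30 ± 0.12 (n = 3). The difference was -0.88 with a standard error of 0.19 from limma. Because the region was chosen by its p, these standard errors do not serve as a test. On the linear scale the pain groups were at 0.588 and 0.544 of the naïve level. The 2 differences share the naïve libraries and were not compared with each other. In naïve DRG the level of the region was at the 37.0th percentile of all regions in both tables. It was at the 9.12th percentile after CCI and at the 8.22nd after CFA. Within the stretch it was 22nd of 35 from the top in naïve, 30th after CCI and 32nd after CFA.

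Libraries of the CCI group had been sequenced in 1 run (replicates 3 to 6) or in 2 runs (replicates 1 and 2), and the naïve libraries in 2 runs. Within the libraries sequenced in 2 runs, the difference after CCI was -0.94. The CCI libraries also differed from naïve in how far high regions stand above low ones. Each region was given a step within its library, the count of different values lower than its own, which rises with reads, and the step at the 90th percentile was divided by the step at the 25th. This percentile ratio was 5.24 to 7.77 in the CCI libraries, 7.97 to 10.25 in the naïve libraries and 8.38 to 10.2 in the CFA libraries. With this ratio as a covariate the difference was -0.85 after CCI and -0.87 after CFA. Every CCI library had a lower ratio than every naïve library, so fits with this covariate after CCI cannot separate it from the group. Leaving out each library in turn gave differences from -0.83 to -0.71 for CCI and from -0.98 to -0.78 for CFA.

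The other 34 regions of the stretch served as neighbours that the choice had not used. After CCI, 0 of them had p below 0.001 by limma, compared with 0.91% of all 56810 regions, and 2 had p below 0.05, or 5.88%, compared with 16.0% of all regions. Both were lower than naïve, and over all regions 7.45% were lower and 8.59% higher at this threshold, while 0.16% were lower and 0.75% higher at p below 0.001. After CFA, 1 region had p below 0.001, compared with 1.12% of all regions. This region rose, as 0.565% of all regions did, and 0 fell, compared with 0.556%. A p below 0.05 after CFA was found in 2 regions (5.88%), compared with 18.9%, and both were higher than naïve, compared with 9.5% higher and 9.45% lower over all regions. In the main comparisons none of the 34 regions had an adjusted p below 0.05 by limma with Benjamini-Hochberg adjustment over all regions. Over all regions 0.0158% did so after CCI and 0 after CFA. The shares of the neighbours with p below 0.05 thus lay under those of the whole tables in both models.

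**Figure D2:**
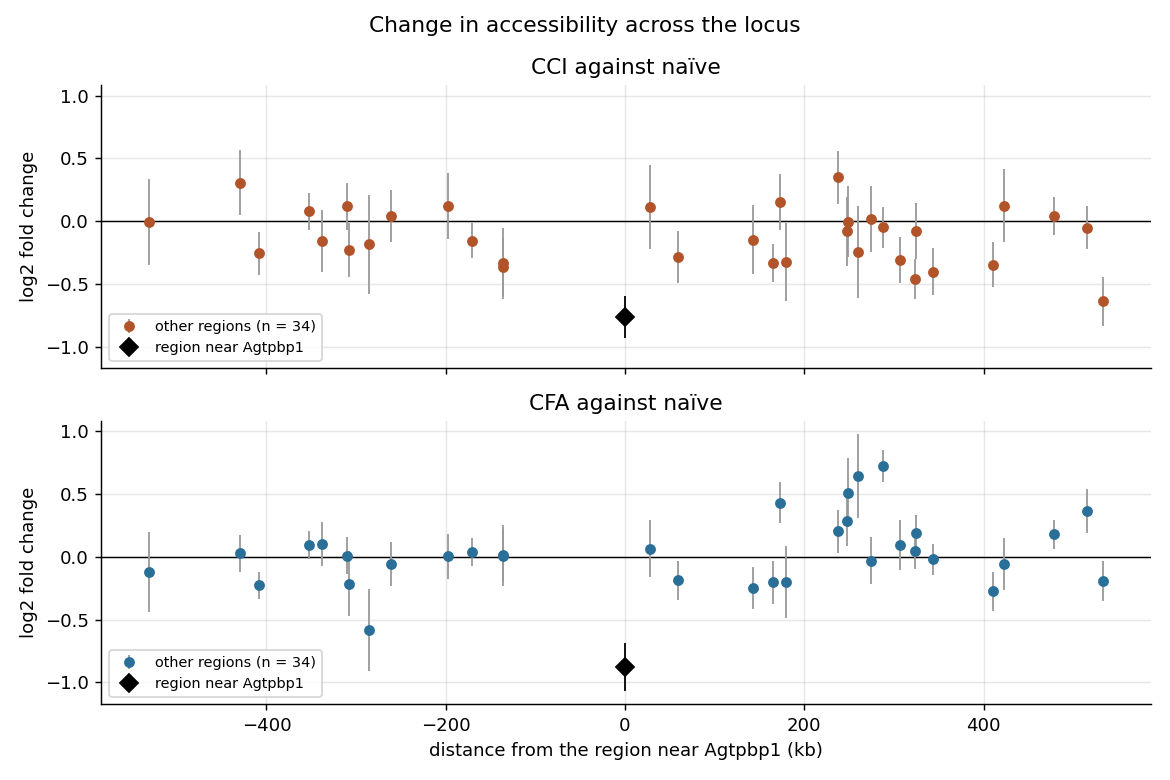
Log2 fold change against naïve of the 35 regions, by distance in kb from the region near Agtpbp1 (black diamond), after CCI (top) and CFA (bottom). Bars give the standard error from limma. The black diamond lies at -0.77 and -0.88, the lowest value in each panel, and the highest CFA point lies at 0.72.

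The log2 fold changes of these 34 regions had a median of -0.11 after CCI, between -0.64 and 0.35, and 23 of them were below 0. Over all regions the median was -0.04, and 55.5% were below 0. After CFA their median was 0.01, between -0.58 and 0.72, with 14 below 0. Over all regions the median after CFA was 0.01, and 49.2% were below 0. The median after CCI turned to 0.07 with the percentile ratio of the libraries as a covariate, which cannot be separated from the group. It was -0.19 without naïve replicate 2 and -0.057 without naïve replicate 3. The median after CFA lay between -0.025 and 0.055 when each library was left out in turn, without CFA a and without naïve replicate 1.

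The 5 nearest regions on each side did not pass p below 0.001 in either comparison. Before the region near Agtpbp1 these are chr17:5372882-5373360, chr17:5437314-5437798, chr17:5463416-5464350, chr17:5497704-5498165 and chr17:5498520-5498967. Here CCI and naïve differed by -0.37 to 0.12 on the log2 scale, and CFA and naïve by -0.05 to 0.04. After it come chr17:5661827-5662042, chr17:5693507-5694127, chr17:5777436-5777653, chr17:5799640-5800305 and chr17:5807333-5808109, with differences from -0.33 to 0.16 for CCI and from -0.25 to 0.43 for CFA. The closest of all, chr17:5661827-5662042, 27.5 kb away from centre to centre, had 3.85, 3.84 and 4.26 in the naïve libraries of the CCI table. The CCI libraries had a lowest value of 3.11, a median of 4.05 and a highest value of 4.87 there, so the groups overlapped. Its CFA libraries had 3.63 to 4.79 with a median of 4.28, against 4.05, 4.01 and 4.44 in naïve, and overlapped too.

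At chr17:5807333-5808109, 173 kb after the region near Agtpbp1, the log2 fold change after CFA was 0.43 with a standard error of 0.16 (p = 0.0211, adjusted p = 0.187 by limma). Its naïve values were 6.12, 6.47 and 6.44, and the CFA libraries had a lowest value of 6.44, a median of 6.88 and a highest value of 7.04, so the groups overlapped at the lower end. Without naïve replicate 1 its p was 0.105 by limma. After CCI the difference was 0.16 (p = 0.496 by limma).

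The region past p below 0.001 after CFA was chr17:5921095-5922452, the widest of the stretch at 1357 bp, 287 kb after the region near Agtpbp1. In the CFA table its naïve replicates had 7.53, 7.62 and 7.96, and its CFA libraries had a lowest value of 8.25, a median of 8.47 and a highest value of 8.54. All CFA libraries lay above all naïve libraries, as in 5.39% of all regions. The mean rose from 7.70 ± 0.23 (SD, n = 3) to 8.43 ± 0.12 (n = 6). The log2 fold change was 0.72 with a standard error of 0.13 (p = 0.000175, adjusted p = 0.0858 by limma). On the linear scale this is 1.65 times the naïve level, and the direction is opposite to that of the region near Agtpbp1 in the same libraries. Of the 9 fits that each left out a library, 7 kept p below 0.001, and the exceptions were those without naïve replicate 1 (p = 0.00149 by limma) and without naïve replicate 2 (p = 0.0013 by limma). With a limma prior that follows the level of each region (intensity trend), p was 7.2e-08. With sample quality weights p was 0.00031 by limma. Adjusted p of these alternative fits was not summarized here.

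**Figure D3:**
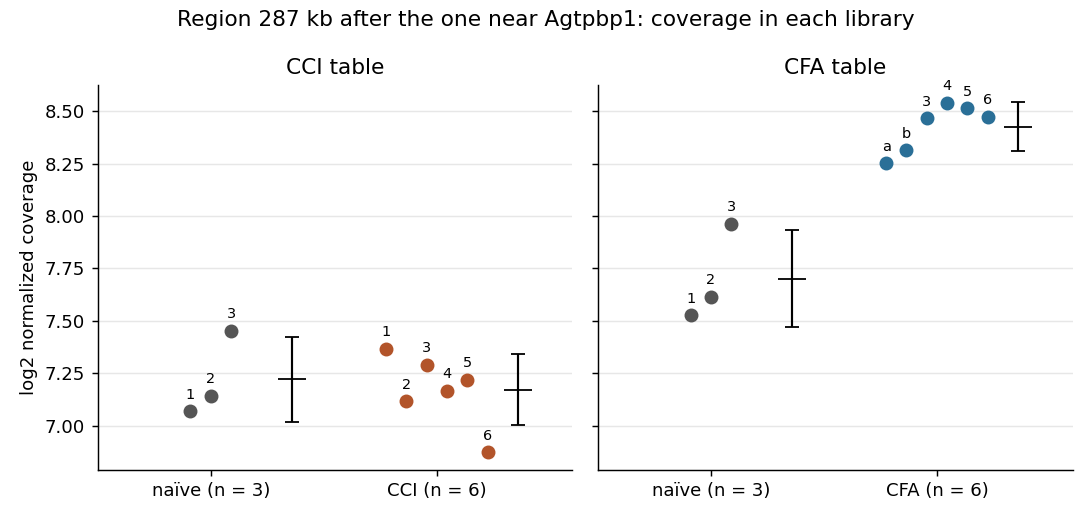
Log2 normalized coverage of chr17:5921095-5922452, 287 kb after the region near Agtpbp1, in each library (points, labelled by replicate). Bars give the mean and SD. In the CFA table the CFA libraries lie at 8.25 or above and the naïve libraries at 7.96 or below, while the groups overlap in the CCI table.

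After CCI the same region had values from 6.87 to 7.37 with a median of 7.19, against naïve values of 7.07, 7.14 and 7.45, and the groups overlapped. The log2 fold change was -0.05 with a standard error of 0.17 (p = 0.772 by limma). The tables were normalized separately, so the difference between the models at this region was not tested.

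After CCI, the regions with the smallest p among those whose groups did not overlap were all lower than naïve. They were chr17:6167393-6167577, with a log2 fold change of -0.64 (standard error 0.19, p = 0.0064, adjusted p = 0.155 by limma), chr17:5957639-5958252 with -0.46 (standard error 0.16, p = 0.0142, adjusted p = 0.201 by limma) and chr17:5799640-5800305 with -0.33 (standard error 0.15, p = 0.0511, adjusted p = 0.314 by limma). In all, 4 of the 34 neighbours (11.8%) had every CCI library below every naïve library, compared with 5.26% of all regions. None of them lay wholly above naïve, where 3.85% of all regions did, and the groups were apart in either direction in 9.11%. At chr17:6167393-6167577, the last region of the stretch, the naïve replicates had 4.44, 4.81 and 4.38 and the CCI libraries 3.60 to 4.27 with a median of 3.93. Its difference after CFA was -0.19 (p = 0.265 by limma). Within the libraries sequenced in 2 runs, its change after CCI was -0.40 (p = 0.0977 by limma), and that of chr17:5957639-5958252 was -0.33 (p = 0.136 by limma). For the latter, p was also 0.0914 by limma without naïve replicate 3. With the percentile ratio as a covariate its change was -0.29 (p = 0.31 by limma), and this ratio cannot be separated from the group.

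After CFA, 1 neighbour had every pain library below every naïve library (2.94%, compared with 5.65% of all regions). With chr17:5921095-5922452, which lay above, 2 neighbours had groups apart, or 5.88%, compared with 11.0%. This was chr17:5225444-5226550, 408 kb before the region near Agtpbp1, with a log2 fold change of -0.23 and a standard error of 0.11 (p = 0.0566, adjusted p = 0.279 by limma). Its naïve replicates had 8.76, 8.61 and 8.62 and its CFA libraries 8.33 to 8.52 with a median of 8.47.

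The stretch spans a wide range of accessibility in naïve DRG, from 3.99 to 8.34 in the CCI table, with a median of 5.33 compared with 5.44 over all regions. The most accessible were chr17:5463416-5464350, chr17:5280907-5282206 and chr17:5225444-5226550, at naïve means of 8.34, 8.29 and 8.09, and all 3 lie before the region near Agtpbp1. The log2 fold changes of the first 2 were -0.15 and 0.08 after CCI and 0.04 and 0.09 after CFA. The least accessible were chr17:5661827-5662042, chr17:5777436-5777653 and chr17:5882738-5883031, at 3.99, 4.25 and 4.35, all after it. The region near Agtpbp1, at 5.07, lay in the lower part of the range. At the ends of the stretch, the first region inside, chr17:5103431-5103753, changed little (-0.01 after CCI and -0.12 after CFA), and the last inside is the region at 6167393 given above. The regions just outside, chr17:5054284-5055081 and chr17:6208515-6209446, had log2 fold changes of -0.41 and -0.28 after CCI and -0.23 and 0.14 after CFA.

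**Figure D4:**
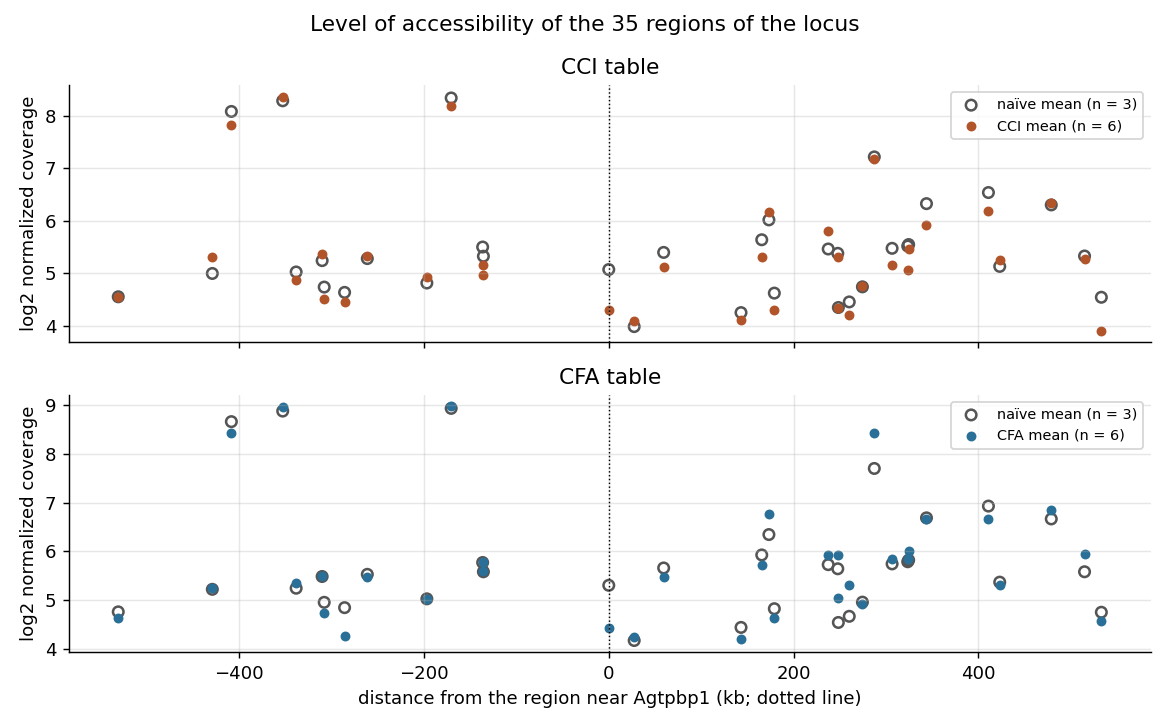
Mean log2 normalized coverage of the 35 regions in naïve (open circles) and in CCI or CFA (filled circles), by distance in kb from the region near Agtpbp1 (dotted line). In the CCI table naïve means run from 3.99 to 8.34, and the 3 highest regions lie to the left of the dotted line.

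Profiles were compared by Pearson's r over the 9 libraries of each table, which share normalization and the naïve libraries, as a description only. By the mean of r over both tables, the regions most like the one near Agtpbp1 were chr17:5225444-5226550 (r of 0.51 in the CCI table and 0.75 in the CFA table), chr17:5799640-5800305 (0.83 and 0.40) and chr17:6167393-6167577 (0.52 and 0.53). After the group means were taken out, r for chr17:5225444-5226550 was 0.02 and 0.17 and for chr17:5799640-5800305 0.43 and 0.15. For chr17:6167393-6167577 it was -0.76 and 0.38. In the CFA table alone, chr17:5348375-5348671 had the highest r with it, 0.83 and 0.89 without group means, but 0.17 and 0.11 in the CCI table. For the 3 regions named first, r was lower in both tables once the group means were taken out.

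RNA of Agtpbp1 was measured in the 2 CFA libraries, and naïve and CCI RNA libraries were not analysed here, so its level is described without a comparison between groups. In CFA replicate 1 it had 5088 of 10520647 counts on genes, or 484 CPM (counts scaled to a common library total), with an exact 95% Poisson interval of 470 to 497 CPM. In CFA replicate 2 it had 14574 of 28825688 counts, or 506 CPM, with an interval of 497 to 514 CPM. The intervals cover counting error only. The mean was 495 ± 15.5 CPM (SD, n = 2).

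By counts, Agtpbp1 was 247th of 19161 genes with a count in CFA replicate 1, within the top 1.29%, and 232nd of 20509 in CFA replicate 2, within the top 1.13%. By mean CPM it was 238th of 21122 genes with a count in either library. These ranks are not per transcript length, and a long transcript such as this one gathers more counts. Next to it were ENSRNOG00000020263 at 496 CPM in rank 237 and Abca8a, a lipid transporter gene, at 493 CPM in rank 239. The log2 ratio of CFA replicate 2 to CFA replicate 1 was 0.06. Over the 2335 genes that reached 1000 counts in each library the SD of this ratio was 0.15, and 58.2% of them differed by more than Agtpbp1.

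**Figure D5:**
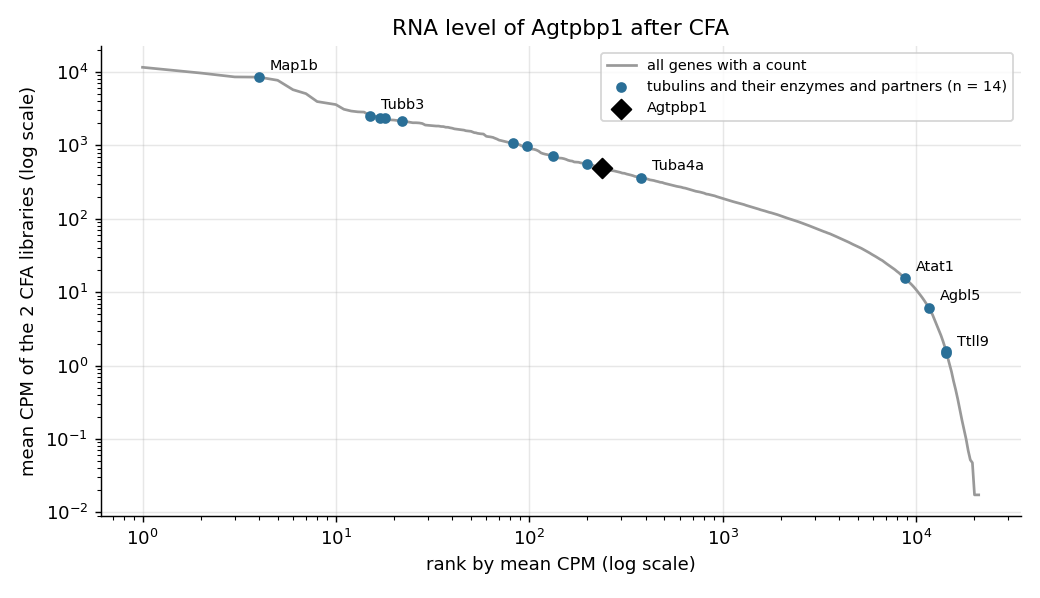
Mean CPM of the 2 CFA libraries against rank, both on log scales, for all genes with a count (grey line). Agtpbp1 (black diamond) lies at 495 CPM and rank 238, and 14 other genes of the tubulin lists (blue) lie between Map1b at rank 4 and Ttll9 at rank 14394.

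Of 56 genes listed for tubulin and its modifications, 15 could be paired with an Ensembl gene. The pairs come from the study's lists of genes that changed in its RNA data, so those that could be paired are not a neutral sample of the pathway. Among the deglutamylases, 2 of 6 were paired. Besides Agtpbp1 this was Agbl5, which removes the branch-point glutamate that other family members leave, with 6.19 ± 0.26 CPM (SD, n = 2). Of 13 genes for glutamylases and their partner subunits, 2 were paired. Ttll9 had 20 and 31 counts (1.49 ± 0.58 CPM) and Ttll13 had 16 and 47 counts (1.58 ± 0.08 CPM), so both rest on few reads. Of the 3 glycylases and the 4 genes of the tyrosine cycle, 0 were paired. Levels of different genes are not per length and are given side by side only.

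RNA of the tubulin genes that could be paired was measured at high counts, and the other tubulin genes have no value here. The 5 tubulin genes paired of 15 had between 364 and 2532 CPM. The neuronal beta-tubulin Tubb3 had 2532 ± 8.19 CPM, Tubb2a 2332 ± 39.4 CPM, Tubb4b 1074 ± 27.3 CPM and Tubb2b 722 ± 16.3 CPM. The alpha-tubulin Tuba4a had 364 ± 15.6 CPM. Tubulin genes are similar in sequence, and read counting can split their reads, which leaves these levels less certain. The tubulin acetyltransferase Atat1 had 15.6 ± 2.96 CPM. Of 12 genes for motors, severing enzymes and other partners, 5 were paired. The microtubule-associated protein genes Map1b, Map1a and Map2 had 8509 ± 1008 CPM, 2164 ± 44.3 CPM and 558 ± 17.9 CPM. The kinesin gene Kif5c had 970 ± 5.11 CPM, and Stmn2, a tubulin-binding protein of growing axons, had 2339 ± 78.6 CPM.

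The tissue label could not be tested with marker genes. Of 13 sensory neuron markers 12 were paired, but a gene on the study's lists of changed genes is bound to have counts in this tissue. The highest of them was the neurofilament gene Nefm at 11580 CPM. The myelin gene Mbp, the 1 Schwann cell marker paired of 5, had 2035 ± 76.8 CPM. Markers of satellite glia, macrophages, muscle and endothelium were not analysed here, and the part of each cell type in the level of Agtpbp1 was not tested.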

How the data were processed

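ATAC-seq of 15 rat DRG libraries (6 CCI, 6 CFA, 3 naïve) and RNA-seq of 2 CFA libraries were used, with groups and replicate numbers from the sample labels. Runs of 1 library form 1 column. For ATAC-seq, the authors deposited log2 coverage after normalization, in 56810 consensus regions with coordinates as given in the files, after Bowtie2 alignment to rn6, duplicate removal, downsampling and MACS2. The normalization step is not given in the sources used here. Columns of a table nearly share 1 distribution. The paper gives an average ATAC-seq depth, and the depth of each single library is unknown. RNA-seq values were deposited as raw counts per Ensembl gene (HISAT2, featureCounts).

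Each model was compared with naïve over all regions of its table with limma 3.58.1 in R 4.3.3, two-sided, without covariates, at an unadjusted p below 0.001, with Benjamini-Hochberg adjusted p beside it. CPM used the total counts on genes. Python 3.11.15 and scipy 1.17.1 served for RNA and summaries. Scripts were tested on simulated data. Named regions were the 5 nearest on each side, those with p below 0.001, the 3 lowest p in each comparison and direction where groups did not overlap, the 3 highest and 3 lowest in naïve and the 3 most alike in profile. For RNA, the named genes were those of the lists that could be paired, and those ranked next to Agtpbp1. The 5 annotated genes on each side of Agtpbp1 could not be paired and have no RNA value here. Alternatives were other normalization, filters, priors, weights, covariates, a replicate block, library subsets and scalings. The locus, lists and tests were chosen with earlier results of these data known. No sequence of rn6 was used here.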

Additional observations from a re-analysis of the deposited data

Results flagged for a closer look

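Among the 17 named regions, 34 groups of 6 pain libraries were searched for a library far from the others, and 1 was found. At chr17:5882738-5883031 the lowest CFA library, CFA a, had a log2 value of 4.30, and its gap to the next library took 0.696 of the range of the group. Chance alone marks about 5% of groups in this way. The log2 fold change of this region after CFA was 0.51 (p = 0.0873 by limma).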

How the results depend on the processing

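At the region near Agtpbp1 the difference was summarized under 13 alternatives for CCI and 11 for CFA. Fits with other priors or with weights were not among them. Under those summarized it kept its sign and moved by less than the SD of the pain libraries. It ran from -0.94 to -0.71 for CCI and from -0.98 to -0.78 for CFA. The filter on low regions removed this region from both tables. Its choice by p nearly requires a kept sign and a small shift, and nothing is read from them. Among the other 34 regions, the number with p below 0.001 after CCI was 0 in all alternative fits. Over all regions 0.91% passed in the main comparison, so a count of 0 among 34 says little about stability. At p below 0.01 the number was 1, and nothing is read from it, because the share over all regions was not summarized here. At p below 0.05 it was 2, compared with 16.0% of all regions. After CFA the number with p below 0.001 was 1 in the main comparison, compared with 1.12% of all regions. It was between 0 and 1 with single libraries left out. At p below 0.05 the number after CFA was 2, compared with 18.9% of all regions. At chr17:5921095-5922452 the difference after CCI, -0.05, was 0.076 with the percentile ratio as a covariate, 0.037 with the replicate block and 0.021 within the libraries sequenced in 2 runs, and lay between -0.13 and 0.066 with single libraries left out. The cause was not tested. Agtpbp1 had 518 CPM when the 5 genes with the highest counts were left out of the total, 493 CPM with median-of-ratios scaling and between 484 and 506 CPM in the single libraries. CCI and naïve replicates of the same number did not deviate together, with r of -0.06, 0.07 and -0.03 over all regions. Whether they shared handling was not tested. With the replicate block the difference near Agtpbp1 after CCI was -0.81, the number of other regions with p below 0.001 was 0, and chr17:5957639-5958252 had p = 0.0895 by limma. In this fit the difference rests on CCI replicates 1, 2 and 3 and the naïve libraries. The other CCI libraries have no naïve library of their number and add nothing to it, so a larger p can come from fewer libraries. No paired analysis was possible for CFA because CFA a and CFA b could not be tied to 1 sample by column name and were used without a number, which leaves 1 number in common with naïve.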

Other observations

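In the CFA table, 6 of the 7 regions from chr17:5871532-5872278 to chr17:5940835-5941246 had a log2 fold change above 0, a stretch chosen after its values were seen and given without a test. Over all regions 49.2% were below 0 after CFA. The values in order were 0.20, 0.28, 0.51, 0.65, -0.03, 0.72 and 0.09, and the 0.72 of chr17:5921095-5922452 is the 1 value with p below 0.001 by limma. The other values above 0 had p from 0.0787 to 0.648 by limma. At the region with 0.65 the naïve replicates had 5.11, 3.60 and 5.28, so naïve replicate 2 lay far below the others. After CCI the same 7 regions had 0.35, -0.08, -0.002, -0.25, 0.02, -0.05 and -0.31.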
